A study of Mus musculus with 6 samples.

Results

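The genes of the proteasome were followed on 6 dual-colour arrays of mouse HSCs (hematopoietic stem cells) and of MPPs, the multipotent progenitors that descend from them. Every probe whose gene name began with Psma, Psmb, Psmc, Psmd, Psme, Psmf or Psmg followed by a digit was taken, which gave 71 spots, 62 probes and 49 gene names. Of these names 48 are proteasome genes. The remaining name, Psmc3ip, belongs to a recombination factor and was kept apart. The 48 genes were 19 of the core particle (Psma and Psmb), 20 of the cap (Psmc and Psmd), 4 activators (Psme), the inhibitor Psmf1 and 4 assembly factors (Psmg), of 29140 features tested in all. All 48 had a probe that passed the filter on dim probes, and 61 of the 62 probes passed; the exception was a second probe of Psmd10. Psma5 and Psmd1 passed through the MPP groups alone, since on 1 HSC array in each dye they were not well above background. The name pattern decided membership and was chosen with earlier results of these data known. Many of the genes described singly below were named by their values.

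There were 4 groups of 3 samples: WT HSCs, WT MPPs, and HSCs and MPPs labelled Bmi1 KO. Per the labels all came from C57BL6 mice 2 to 3 months old, were sorted by FACS, and 10 µg of total RNA of a sample was labelled. Bmi1 is a subunit of a Polycomb complex that silences genes and is needed for stem cell self-renewal. Each array held 1 KO-labelled sample in red (Cy5) and 1 WT sample in green (Cy3), and no array had the dyes exchanged. A dye effect of a probe and the effect of genotype cannot be told apart in the ratio of KO-labelled over WT samples, while in a comparison of MPPs with HSCs within 1 dye a probe's dye effect cancels. The labels call the replicates biological but name no animals, so the p-values measure the spread between these samples.

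The proteasome is the large protease that degrades proteins tagged with ubiquitin. Its core particle is a barrel of outer alpha rings, which form the gate, and inner beta rings, which hold the cutting sites, and its cap recognises ubiquitin, unfolds the substrate with a ring of ATPases and feeds it in. Chaperones assemble core and cap without being part of the finished particle, and immune cells exchange the cutting subunits for immunoproteasome forms. Protein turnover is known to matter in blood stem cells, which keep a low rate of protein synthesis.

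Facts about the arrays bear on all values. The median spot signal was between 124 and 206 in green and between 379 and 581 in red, and no spot of a proteasome gene was saturated. Markers went with the population labels: of 10 HSC markers 0 were above 0 in MPPs over HSCs among WT samples and 2 among KO-labelled samples, and all 6 MPP markers were above 0 in both. The log2 ratio of KO-labelled over WT samples for Bmi1 itself was -0.39, -2.42 and -0.50 on HSC arrays 1, 2 and 3 and 0.23, -0.69 and 0.48 on MPP arrays 1, 2 and 3. The MPP arrays thus did not show a lower Bmi1 signal in the KO-labelled samples (mean log2 ratio 0.01). Whether the probe lies in the deleted part was not determined here, and these samples are called KO-labelled throughout. The 8 genes of a B lineage list had a median log2 ratio of 2.01, 4.46 and 4.23 on MPP arrays 1, 2 and 3 against -0.12 to 0.03 on the HSC arrays. On the slide, row 1 held the HSC arrays together with MPP array 1, and row 2 held MPP arrays 2 and 3.

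Proteasome genes stood higher in MPPs than in HSCs more often than features in general, though no single gene passed the test. Among WT samples 38 of the 48 genes had an estimate above 0, against 44.7% of all features, and their median log2 difference was 0.42 against -0.08 for all features. Among KO-labelled samples 37 of 48 were above 0, against 43.8% of all features, with a median of 0.57 against -0.08. The direction was the same in both dyes for 39 genes, 33 of them above 0 and 6 below, while 9 had opposite signs. Both dyes were read on the same 6 arrays, so the dyes are not independent of each other. Over all features 28.9% were above 0 in both dyes and 40.4% below 0 in both.

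With limma and Benjamini-Hochberg adjustment over all features, 0 of the 48 genes passed the threshold of 0.05 in either dye, where 0.419% of features passed among WT samples and 0.515% among KO-labelled samples. An unadjusted p under 0.05 was found for 6 genes higher in WT MPPs (background 7.05%) and 0 lower (background 7.86%), and for 11 genes higher (background 6.65%) and 2 lower (background 5.34%) in KO-labelled MPPs. Among WT samples every MPP array lay above every HSC array for 6 genes, against 8.57% of all features, and below for 0 genes, against 13.1%, so the first count is close to its background. Among KO-labelled samples it was 14 genes, against 8.80%, and 2 genes lay lower on every MPP array, against 10.7%. Both counts of higher genes include Psma5, which passed the filter through the MPP groups alone. A stricter filter left 42 genes, of which 34 were above 0 among WT samples (44.4% of the features left) and 33 among KO-labelled samples (43%). The brightest 25% of features, a comparison added after the values were seen, had medians of 0.05 among WT samples and -0.02 among KO-labelled samples. Some proteasome probes were dim, such as that of Psmb11 at 6.24 to 6.61 among WT samples, so these features are not a matched background.

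**Figure D1:**
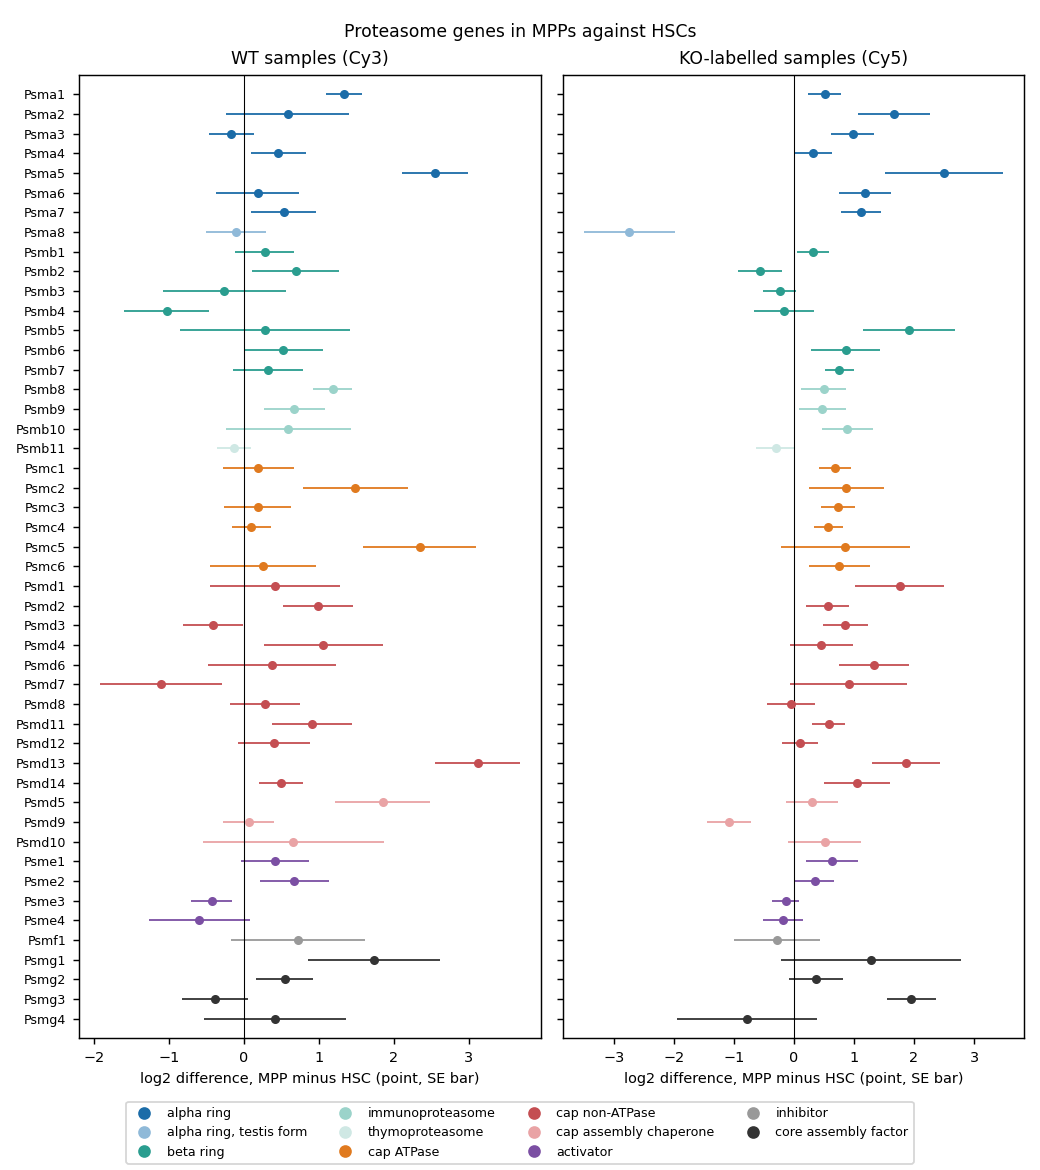
Log2 difference of each of the 48 proteasome genes, MPP minus HSC, among WT samples (left) and KO-labelled samples (right), with genes ordered and coloured by role. Points are limma estimates from 3 arrays per population and bars are 1 standard error; 38 points on the left and 37 on the right lie above 0, and many bars reach across 0.

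The shift can be read array by array. For each gene the mean over the 6 arrays of its dye was subtracted from its log2 level, and the median of these deviations was taken over the 48 genes. Among WT samples it was -0.08, -0.48 and 0.03 on HSC arrays 1, 2 and 3 and 0.25, 0.11 and 0.46 on MPP arrays 1, 2 and 3. Among KO-labelled samples it was -0.37, -0.50 and 0.04 on the HSC arrays and 0.32, 0.21 and 0.31 on the MPP arrays. In both dyes every MPP array stood above every HSC array, with HSC array 2 lowest and HSC array 3 nearest to the MPP arrays. HSC array 3 also stood apart in myeloid genes. The log2 of the summed level of 8 neutrophil and monocyte genes was 14.12, 13.74 and 15.27 on HSC arrays 1, 2 and 3 in WT samples. In KO-labelled samples it was 15.68, 15.41 and 16.79. The brightest genes weigh most in such a sum. Without HSC array 3 the median difference of the proteasome genes was 0.51 among WT samples and 0.69 among KO-labelled samples. With slide row as a covariate, MPP array 1 is left against the HSC arrays of the same row. The median difference was then 0.39 among WT samples with 30 genes above 0, and 0.60 among KO-labelled samples with 41 above 0. The matching values of all features, with this covariate or without HSC array 3, are not given here. These medians and counts thus have no background beside them.

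**Figure D2:**
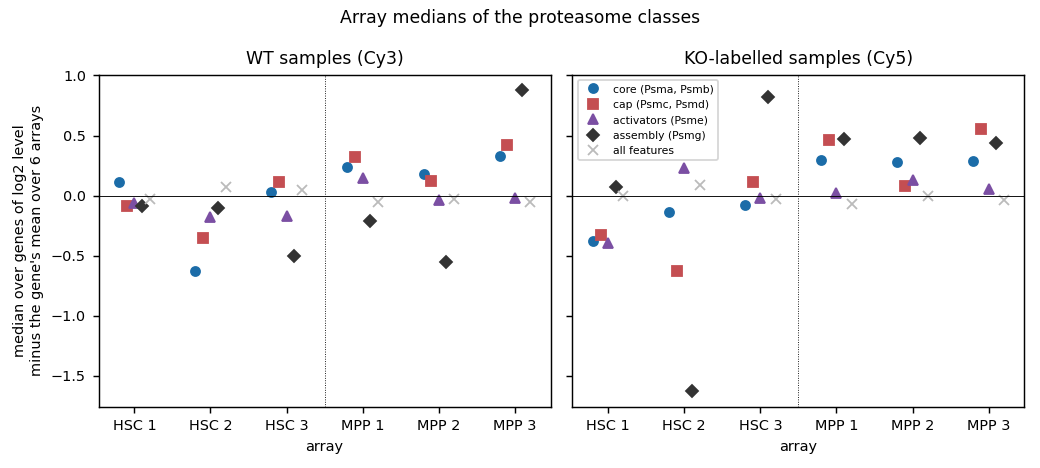
Median over the genes of a class of the log2 level minus each gene's mean over the 6 arrays of its dye, on every array, among WT samples (left) and KO-labelled samples (right). Core genes stand higher on every MPP array than on any HSC array in both dyes, cap and activator genes do so in WT samples alone, the 4 Psmg genes in neither, and all features stay near 0.

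Genes of cell division and of myeloid cells also lay mostly above 0 in MPPs over HSCs, and by limma 0 of either list passed. All 8 genes of a proliferation list (such as Mki67, Top2a and Mcm2) were above 0 in MPPs over HSCs in both dyes. Their summed level was 13.95 to 14.23 in WT HSCs and 14.53 to 15.06 in WT MPPs on the log2 scale. In KO-labelled samples the summed level was 15.04 to 15.56 in HSCs and 16.38 to 17.07 in MPPs. The summed level of the 8 B lineage genes was 11.81 to 13.95 in KO-labelled HSCs and 14.63 to 17.31 in KO-labelled MPPs, against 10.75 to 11.83 in WT HSCs and 11.50 to 12.21 in WT MPPs. Of the 8 neutrophil and monocyte genes 6 were above 0 in MPPs over HSCs among WT samples, with a median of 1.24, and 7 among KO-labelled samples, with a median of 2.26. Their summed level in MPPs was 15.26 to 16.05 in WT samples and 16.77 to 17.48 in KO-labelled samples, so HSC array 3 lay within the MPP range in both dyes. Of 4 erythroid genes 0 were above 0 among WT samples (median -0.71) and 3 among KO-labelled samples (median 1.53). The summed erythroid level was 10.11 to 15.00 in WT HSCs and 9.45 to 12.003 in WT MPPs, and 11.69 to 15.21 and 13.76 to 16.004 in the KO-labelled samples. The part of these lists in the proteasome values was not tested. In bulk RNA, more cells of a type and more RNA per cell cannot be told apart.

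The alpha ring genes had the highest median of the core's groups in the KO-labelled samples. These 7 subunits form the outer rings and the gate of the barrel. Their median log2 difference of MPPs over HSCs was 0.53 among WT samples, with 6 of 7 above 0 and Psma3 at -0.17, and 1.11 among KO-labelled samples, with 7 of 7 above 0. In the KO-labelled samples 5 of the 7 (Psma1, Psma3, Psma5, Psma6 and Psma7) were higher on every MPP array than on any HSC array, against 8.8% of all features. Among WT samples 2 were (Psma1 and Psma5), against 8.57% of all features. Both counts include Psma5, which passed the filter through the MPP groups alone, so its place in them is no support.

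Psma1 had close replicates among WT samples. Its probe lies at chr7:121408229-121408288 of mouse assembly mm9. Its log2 level among WT samples was 10.64, 10.71 and 10.85 on HSC arrays 1, 2 and 3 and 11.93, 11.93 and 12.36 on MPP arrays 1, 2 and 3. The WT groups stood more than 1 log2 unit apart, and the difference was 1.34 (SE 0.24), a 2.52-fold higher level in MPPs, with an adjusted p of 0.122 by limma. Among KO-labelled samples the levels were 12.56, 13.19 and 13.13 in HSCs, compared with 13.30, 13.46 and 13.64 in MPPs. These groups again did not overlap, but the gap between the highest HSC and the lowest MPP array was small.

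Psma5 showed a larger and less even separation. Its probe lies at chr3:108082777-108082836 (mm9). Among WT samples its log2 level was 7.70, 6.22 and 6.50 in HSCs and 9.03, 9.51 and 9.55 in MPPs. The probe was well above background on 2 of the 3 HSC arrays in each dye and passed the filter through the MPP groups alone, so its higher level there is a description. The WT difference was 2.56 (SE 0.44), about 5.88-fold with 1 HSC array not well above background, with an adjusted p of 0.109 by limma, and it was 3.86 with the deposited processed signal and 2.22 with slide row as a covariate. Among KO-labelled samples HSC arrays 1, 2 and 3 stood at 10.41, 6.35 and 9.29 and the MPP arrays at 10.70, 11.39 and 11.48, so HSC array 2 was far below the others and HSC array 1 close to the MPP arrays.

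Psma7, another subunit of the same ring, was named among KO-labelled samples. It stood at 13.01, 12.36 and 13.20 in HSCs and at 13.83, 14.40 and 13.68 in MPPs. The groups did not overlap, and the difference was 1.11 (SE 0.34) with an adjusted p of 0.287 by limma. Among WT samples its levels of 12.24, 10.92 and 11.84 in HSCs and 12.46, 11.66 and 12.48 in MPPs overlapped.

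Psma8, the alpha subunit of the testis that replaces Psma7 in germ cells, went the other way in KO-labelled samples. Its log2 level there was 9.79, 11.62 and 10.62 in HSCs and 8.92, 6.39 and 8.50 in MPPs, where 2 of 3 arrays were well above background. All 3 MPP arrays lay below all HSC arrays, with a difference of -2.74 (SE 0.77) and an adjusted p of 0.25 by limma. Among WT samples the levels were 8.74, 8.50 and 7.97 in HSCs, compared with 7.71, 8.97 and 8.23 in MPPs and overlapped.

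The constitutive beta ring genes had lower median differences than the alpha ring genes, which was not tested. These 7 subunits form the inner rings, and Psmb5, Psmb6 and Psmb7 carry the cutting sites. Their median log2 difference was 0.28 among WT samples, with 5 of 7 above 0, and 0.32 among KO-labelled samples, with 4 of 7 above 0. No beta ring gene separated the WT groups, where 8.57% of all features lay higher on every MPP array and 13.1% lower. Psmb7 alone of the 7 separated the KO-labelled groups, where 8.8% of all features lay higher and 10.7% lower. With 7 genes these counts cannot be told from such shares.

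Psmb7, which carries the trypsin-like site, stood at 13.88, 14.17 and 14.33 in KO-labelled HSCs and at 14.81, 15.07 and 14.75 in KO-labelled MPPs. The difference was 0.75 (SE 0.25) with an adjusted p of 0.324 by limma. In WT samples its levels were 11.93, 13.42 and 12 in HSCs, compared with 13.01, 12.37 and 12.94 in MPPs, with HSC array 2 above all MPP arrays.

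Psmb5, which carries the chymotrypsin-like site and is the target of bortezomib, varied strongly between replicates. Its level in WT samples was 9.48, 7.13 and 10.84 in HSCs and 9.06, 8.14 and 11.09 in MPPs. In KO-labelled samples it was 11.53, 8.48 and 10.38 in HSCs and 12.38, 12.37 and 11.38 in MPPs. The groups overlapped in both dyes, since HSC array 1 exceeded the lowest MPP array.

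Psmb6, which carries the caspase-like site, also overlapped. It stood at 11.03, 11.20 and 12.17 in WT HSCs and at 11.32, 12.97 and 11.70 in WT MPPs. KO-labelled HSCs stood at 13.17, 11.29 and 13.42 and KO-labelled MPPs at 13.34, 13.46 and 13.65, where HSC array 2 was the single low sample.

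The immunoproteasome genes Psmb8, Psmb9 and Psmb10 encode the cutting subunits that interferon induces and that lymphoid cells hold. All 3 were above 0 in both dyes, with a median log2 difference of 0.67 among WT samples and 0.49 among KO-labelled samples. Psmb8 separated the WT groups. Its probe lies at chr17:34337771-34337830 (mm9), and its log2 level was 12.91, 12.78 and 12.89 in WT HSCs and 13.69, 14.14 and 14.31 in WT MPPs. The HSC samples lay within 0.2 of each other and below every MPP sample, and the difference was 1.18 (SE 0.26), 2.27-fold, with an adjusted p of 0.179 by limma. Among KO-labelled samples Psmb8 stood at 14.22, 15.53 and 15.18 in HSCs and at 15.60, 15.51 and 15.30 in MPPs, and the groups overlapped.

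Psmb9 and Psmb10 did not separate the populations. Psmb9 stood at 12.49, 11.59 and 12.86 in WT HSCs and at 12.93, 12.63 and 13.39 in WT MPPs. In KO-labelled samples the first probe of Psmb9 gave a difference of 0.47 and its second probe -1.13, so that the mean of both probes was below 0. Psmb10 stood at 10.30, 8.81 and 11.69 in WT HSCs and at 10.09, 11.98 and 10.51 in WT MPPs, and its WT difference of 0.59 became -0.14 without HSC array 2 and -0.18 with slide row as a covariate. Psmb11, the thymus form, had WT levels between 6.24 and 6.61 and KO-labelled levels between 7.10 and 8.18, with differences of -0.14 and -0.31.

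Most cap genes lay above 0 in MPPs over HSCs in each dye. Of the 20 genes 18 were above 0 in each dye, with a median of 0.41 among WT samples and 0.71 among KO-labelled samples. The 6 ATPases of the unfolding ring were all above 0 in both dyes, with medians of 0.22 and 0.75. The 11 other subunits, which bind or trim ubiquitin or form the lid, had medians of 0.42 with 9 above 0 and 0.86 with 10 above 0.

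Psmd13, a lid subunit, had the highest log2 difference of the 48 genes among WT samples. Its probe lies at chr7:148084248-148084307 (mm9). The log2 level was 8.29, 6.23 and 7.82 in WT HSCs and 10.33, 10.97 and 10.41 in WT MPPs. The WT groups stood 2 log2 units apart at their nearest samples, and the difference was 3.12 (SE 0.56), 8.69-fold, with an adjusted p of 0.122 by limma. In KO-labelled samples it stood at 9.52, 9.88 and 11.43 in HSCs and at 12.45, 11.48 and 12.48 in MPPs. These groups came close at HSC array 3 and MPP array 2 without overlapping, and the difference was 1.86 (SE 0.56) with an adjusted p of 0.287 by limma.

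Only Psma1, Psma5 and Psmd13 of the 48 genes were higher on every MPP array in both dyes, and 2.79% of all features were. The dyes share their arrays and are not independent. Psma5 passed the filter through the MPP groups alone, so its place in this count is no support. With slide row as a covariate the WT differences of Psma1 and Psmd13 were 1.19 and 2.88. No gene of the 48 was lower on every MPP array in both dyes, where 3.28% of all features were.

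The ATPases differed among themselves in how even they were. Psmc5 stood at 8.58, 5.93 and 7.48 in WT HSCs, where 2 of 3 arrays were well above background, and at 9.43, 8.96 and 10.64 in WT MPPs, which all lay higher. In KO-labelled samples Psmc5 stood at 10.99, 8.64 and 12.93 in HSCs and at 11.77, 10.69 and 12.67 in MPPs, and the groups overlapped. Psmc4 was steady, at 12.94, 12.57 and 13.16 in WT HSCs and 13.12, 13.05 and 12.79 in WT MPPs. In KO-labelled samples Psmc4 stood at 14.59, 14.47 and 14.95 in HSCs and at 15.17, 15.17 and 15.36 in MPPs, so every MPP array was higher there. Psmc1 and Psmc3 were the other ATPases that separated the KO-labelled groups, where 8.8% of all features lay higher on every MPP array.

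The cap also has chaperones that fit its ATPases together and leave the finished particle, and 3 of them carry a Psmd name. Psmd5 stood at 9.82, 8.40 and 10.91 in WT HSCs and at 11.22, 11.94 and 11.53 in WT MPPs, without overlap. In KO-labelled samples Psmd5 overlapped, at 11.94, 11.02 and 12.43 in HSCs and 12.08, 11.69 and 12.53 in MPPs. Psmd9 was lower on every KO-labelled MPP array, at 11.78, 11.88 and 10.75 against 12.25, 12.77 and 12.66 in HSCs. That difference was -1.08 (SE 0.37) with an adjusted p of 0.341 by limma, but the second Psmd9 probe gave -0.02. Psmd10 was uneven in WT HSCs, at 12.25, 7.73 and 12.12, and even in WT MPPs, at 11.36, 11.35 and 11.37.

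**Figure D3:**
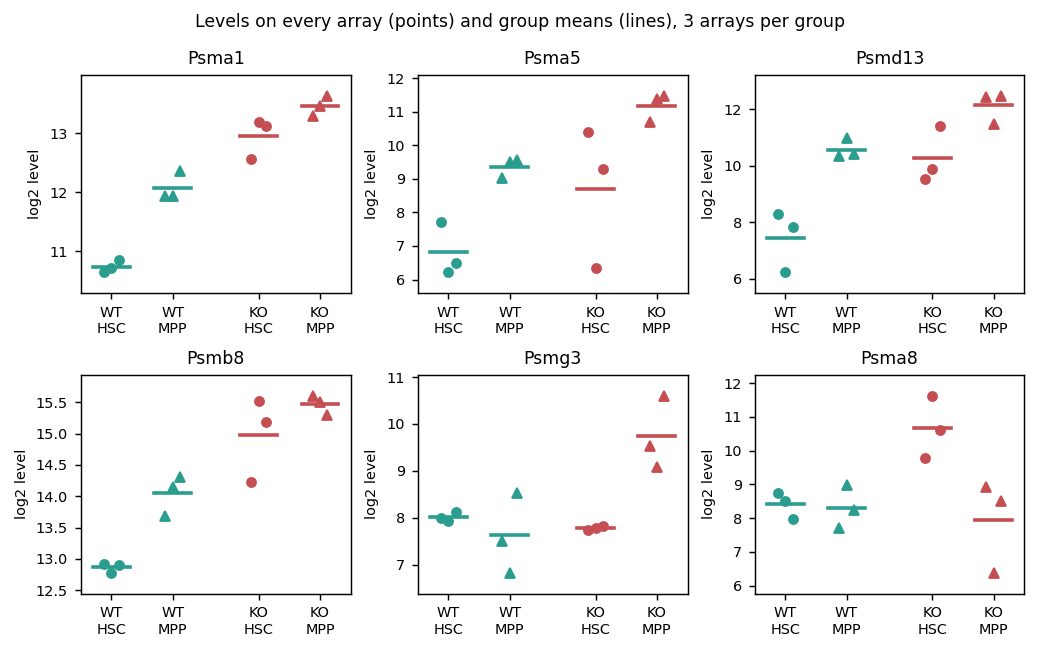
Log2 level on every array (circles HSC, triangles MPP) and group means (lines) for 6 genes, with WT samples in green and KO-labelled samples in red. The scaling was done within each dye, so the colours are not to be compared; Psma1, Psma5 and Psmd13 separate the populations in both dyes, Psmb8 in WT samples alone, Psmg3 and Psma8 in KO-labelled samples alone.

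The activators showed no common direction between the populations. Psme1 and Psme2 form the ring that opens the core in immune cells, Psme3 forms the nuclear activator and Psme4 a large single-chain activator. Their median log2 difference of MPPs over HSCs was -0.01 among WT samples and 0.10 among KO-labelled samples, with 2 of 4 above 0 in each.

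The 2 genes above 0 were Psme1 and Psme2 in both dyes. Psme1 stood at 10.97, 11.15 and 12.48 in WT HSCs and at 11.91, 11.66 and 12.28 in WT MPPs, and Psme2 stood at 13.37, 11.93 and 12.19 and at 12.96, 12.84 and 13.72. Both overlapped, and another probe of Psme2 was below 0 in both dyes (-0.65 and -0.36). Psme3 stood at 15.22, 15.27 and 15.25 in WT HSCs and at 15.22, 14.77 and 14.46 in WT MPPs, where the SD of 0.02 among HSC samples was the lowest of the 48 genes. Psme4 stood at 9.92, 11.99 and 9.65 in WT HSCs and at 10.14, 10.33 and 9.30 in WT MPPs, and its second probe gave differences above 0 (0.57 and 0.50). Psmf1, which encodes the inhibitor PI31, ranged from 8.52 to 11.84 over the WT samples and from 10.14 to 13.03 over the KO-labelled samples, and its groups overlapped.

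The Psmg genes encode the chaperones that assemble the core's alpha ring, Psmg1 with Psmg2 and Psmg3 with Psmg4. Their median log2 difference was 0.48 among WT samples and 0.82 among KO-labelled samples, with 3 of 4 above 0 in each. The Psmg1 probe used gave 1.73 and 1.27, but its second probe gave 0.57 among WT and -0.04 among KO-labelled samples. Psmg3 separated the KO-labelled groups. Its log2 level there was 7.75, 7.78 and 7.83 in HSCs and 9.54, 9.07 and 10.60 in MPPs, and the HSC samples had the lowest SD of the 48 genes in that group (0.04). The difference was 1.95 (SE 0.41), 3.86-fold, with an adjusted p of 0.138 by limma. Among WT samples Psmg3 stood at 7.99, 7.92 and 8.12 in HSCs and at 7.51, 6.83 and 8.52 in MPPs, which overlapped, and the difference of -0.39 became 0.01 without MPP array 2.

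Its partner Psmg4 did not show that separation. It stood at 10.25, 6.76 and 11.28 in KO-labelled HSCs and at 9.65, 7.70 and 8.58 in KO-labelled MPPs. Psmg1 was as uneven, at 9.09, 7.35 and 6.25 in WT HSCs and 9.46, 10.39 and 8.03 in WT MPPs, and at 11.30, 6.01 and 11.88 and at 10.30, 11.01 and 11.70 in the KO-labelled samples. Psmg2 stood between 6.43 and 6.74 in WT HSCs and at 6.72, 6.71 and 7.90 in WT MPPs. HSC array 2 held the lowest KO-labelled level of both Psmg1 and Psmg4. Both were well above background on 2 of 3 arrays in KO-labelled HSCs, and Psmg4 also in WT MPPs. The second Psmg1 probe stood at 10.85, 9.235 and 10.94 in KO-labelled HSCs.

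The promoters of genes that separated the populations were set beside those of the cutting subunits, because cells are known to raise proteasome genes together through the factor Nrf1 (gene Nfe2l1) at the antioxidant response element. RefSeq promoters (assembly GRCm38.p6, 250 bases before to 50 after each gene's start) were found for 40 of the 48 genes, with 43 promoters. The motifs were searched on both strands and were chosen after the values were seen, as were the promoters printed. The antioxidant response element core, TGACNNNGC, was in 6 of the 43 promoters (14%) against 12.4% of all 32851 promoters. The CCAAT box, CCAAT, was in 14 (32.6%) against 37.4%, and the interferon response core, GAAA followed by any 2 bases and GAAA, in 5 (11.6%) against 3.44%. The 6 genes with the antioxidant response element core were Psmb5, Psmb6, Psmc6, Psmd9, Psmd12 and Psme4, which are none of the 3 genes that separated both dyes. The 5 with the interferon response core were Psmb3, Psmd4, Psmd9, Psme1 and Psmg4, and none of the immunoproteasome genes. At these shares of promoters, the lack of a match in 3 genes decides nothing. A match is a run of letters, and neither binding nor its lack was measured.

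The 250 bases before the start are printed 5′ to 3′ on the gene's strand, with matches of the 3 motifs in capitals, for the genes that separated the populations in both dyes, for Psmg3, and for 2 cutting subunits. Psma1 (chr7:114276117-114276366, minus strand) has 2 CCAAT boxes, and no match lies in these bases of Psma5 (chr3:108256676-108256925, plus), Psmd13 (chr7:140882144-140882393, plus) or Psmg3 (chr5:139826895-139827144, minus). Psmb5 (chr14:54617996-54618245, minus) and Psmb6 (chr11:70525107-70525356, plus) each hold 1 antioxidant response element core.
Psma1: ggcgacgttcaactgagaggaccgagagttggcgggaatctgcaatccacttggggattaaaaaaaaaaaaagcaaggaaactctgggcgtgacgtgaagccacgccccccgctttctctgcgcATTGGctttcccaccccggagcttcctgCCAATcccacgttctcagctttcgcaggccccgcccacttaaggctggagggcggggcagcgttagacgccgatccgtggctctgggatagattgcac
Psma5: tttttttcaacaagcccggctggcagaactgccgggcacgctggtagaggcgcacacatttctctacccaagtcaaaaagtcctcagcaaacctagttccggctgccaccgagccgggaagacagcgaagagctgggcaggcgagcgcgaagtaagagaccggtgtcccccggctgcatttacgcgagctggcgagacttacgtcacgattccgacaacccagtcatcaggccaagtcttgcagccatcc
Psmd13: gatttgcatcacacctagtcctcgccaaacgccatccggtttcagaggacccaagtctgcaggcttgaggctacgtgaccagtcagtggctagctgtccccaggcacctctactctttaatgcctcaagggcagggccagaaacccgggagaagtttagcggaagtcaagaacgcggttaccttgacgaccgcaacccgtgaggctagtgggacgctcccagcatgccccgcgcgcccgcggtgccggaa
Psmg3: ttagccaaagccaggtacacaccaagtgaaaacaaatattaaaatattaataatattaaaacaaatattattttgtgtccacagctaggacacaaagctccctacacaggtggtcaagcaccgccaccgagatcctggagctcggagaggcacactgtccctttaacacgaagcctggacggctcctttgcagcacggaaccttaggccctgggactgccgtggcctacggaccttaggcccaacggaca
Psmb5: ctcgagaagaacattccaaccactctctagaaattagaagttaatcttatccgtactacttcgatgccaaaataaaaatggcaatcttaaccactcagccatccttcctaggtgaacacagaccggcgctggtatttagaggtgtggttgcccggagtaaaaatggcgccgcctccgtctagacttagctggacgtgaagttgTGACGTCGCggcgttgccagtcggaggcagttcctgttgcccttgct
Psmb6: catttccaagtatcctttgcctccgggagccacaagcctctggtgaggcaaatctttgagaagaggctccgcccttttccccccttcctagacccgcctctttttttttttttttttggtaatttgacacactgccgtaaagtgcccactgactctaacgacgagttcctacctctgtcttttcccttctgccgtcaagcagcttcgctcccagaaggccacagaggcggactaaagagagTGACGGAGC

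Between KO-labelled and WT samples no proteasome gene passed the test in either population, and the direction depended on the gene. In HSCs 30 of the 48 genes had an estimate above 0 (50.2% of all features), with a median log2 ratio of 0.15 against 0.00 for all features, which was 0.03 without HSC array 3. In MPPs 31 were above 0 (50.7% of all features), with a median of 0.16 against 0.01. Over both populations 29 were above 0 (50% of all features), with a median of 0.15 against 0.00.

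Limma called 0 genes in each of these comparisons, and 0% of all features passed as well. An unadjusted p under 0.05 was found in HSCs for 3 genes higher (background 3.95%) and 1 lower (3.45%), in MPPs for 3 higher (2.49%) and 1 lower (2.61%), and for the mean effect for 1 higher (4.49%) and 0 lower (3.88%). On all 3 HSC arrays 6 genes were above 0 and 5 below, where 13.3% and 13.6% of features were. On all 3 MPP arrays 12 were above and 3 below, where 14.8% and 14.2% were. Centring each array on its median in place of loess moved the median of all features to 0.30 in HSCs, 0.25 in MPPs and 0.28 for the mean. The proteasome medians were then 0.75, 0.54 and 0.63, with 40, 39 and 42 of 48 genes above 0 against 68.9%, 68.5% and 72.4% of all features. Psme3 then passed for the mean effect (1.11, adjusted p 0.0476 by limma), where its effect was -0.01 with loess. Without MPP array 1 the MPP median was -0.02 in place of 0.16.

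**Figure D4:**
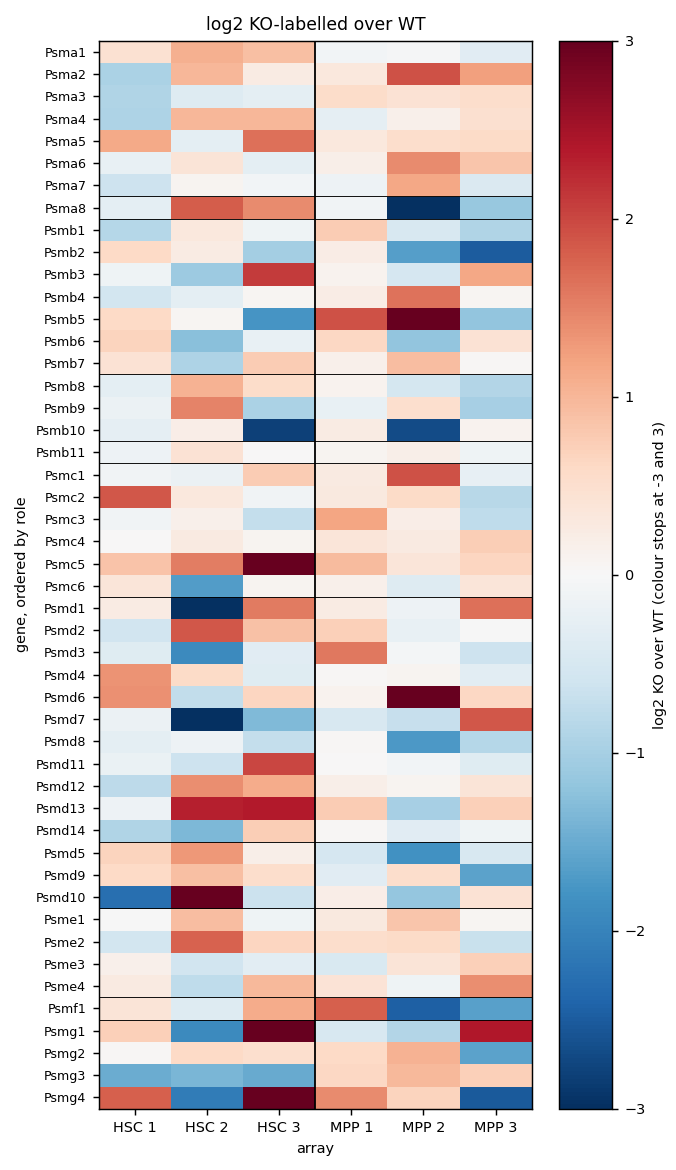
Log2 ratio of KO-labelled over WT samples for the 48 proteasome genes (rows, ordered by role with lines between roles) on the 6 arrays (columns), with red above 0 and blue below 0; colours stop at -3 and 3. Psmc4 and Psmc5 are the rows above 0 on all 6 arrays, and Psmg3 is blue on the HSC arrays and red on the MPP arrays.

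By role, the core had a median ratio of 0.10 in HSCs and 0.12 in MPPs, and the cap 0.27 and 0.16. The 4 activators had 0.21 with 3 above 0 in HSCs and 0.31 with 4 above 0 in MPPs. The 4 Psmg genes had 0.72 and 0.18, with 3 above 0 in each, and ranged from -1.46 to 1.14 in HSCs.

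Psmg3 was the gene with the smallest p of the 48 in both populations, with opposite signs. Its log2 ratio was -1.48, -1.37 and -1.51 on HSC arrays 1, 2 and 3 and 0.63, 0.98 and 0.72 on MPP arrays 1, 2 and 3. All HSC arrays were below 0 and all MPP arrays above, with a small spread in each. The HSC effect was -1.46 (SE 0.22, adjusted p 0.652 by limma) and the MPP effect 0.77 (SE 0.22, adjusted p 0.966 by limma). Their difference was 2.23 (SE 0.30), with an unadjusted p of 0.000241 and an adjusted p of 0.964 by limma, and it lay between 2.09 and 3.20 under every alternative run on it.

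Psma1 and Psma3, both of the alpha ring, also had opposite signs, in opposite senses. The log2 ratio of Psma1 was 0.46, 1.08 and 0.91 on the HSC arrays and -0.08, -0.03 and -0.33 on the MPP arrays. The HSC effect was 0.81 (SE 0.24, adjusted p 0.664 by limma), while in MPPs the values lay near 0, and their mean of -0.15 became 0.25 with median centring. Psma3 stood at -0.91, -0.40 and -0.29 on the HSC arrays and at 0.55, 0.42 and 0.53 on the MPP arrays, where its SD of 0.07 was the lowest of the 48 genes.

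Psmd5, the cap chaperone, was the remaining gene with every HSC array on one side of 0 and every MPP array on the other. It stood at 0.66, 1.30 and 0.18 on the HSC arrays and at -0.50, -1.81 and -0.49 on the MPP arrays. Such a split was seen for 4 of 48 proteasome genes and for 549 of all 29140 features (1.88%). The MPP effect minus the HSC effect passed for 0 genes by limma (0% of all features), with an unadjusted p under 0.05 for 2 genes above 0 (background 1.68%) and 3 below (2.35%). Its median over the 48 genes was -0.05, with 23 above 0 (50.8% of all features), and the arrays of the populations did not overlap for 4 genes higher in MPPs (background 3.81%) and 3 lower (4.29%).

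Psmc5 and Psmc4, ATPases of the cap, were the only genes of the 48 above 0 on all 6 arrays, where 3.26% of features were, and no gene was below 0 on all 6, where 3.30% were. Psmc5 stood at 0.87, 1.53 and 4.21 on the HSC arrays and at 0.96, 0.37 and 0.65 on the MPP arrays, so HSC array 3 held by far the highest ratio. Its mean effect was 1.43 (SE 0.43), 2.69-fold, with an adjusted p of 0.567 by limma, and was 0.93 without HSC array 3. Psmc4 stood at 0.01, 0.28 and 0.08 on the HSC arrays and at 0.36, 0.28 and 0.74 on the MPP arrays, with a mean effect of 0.29 (SE 0.16) and an adjusted p of 0.644 by limma.

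Other genes had 1 sign in a single population. In HSCs Psmd7, a lid subunit, stood at -0.18, -4.21 and -1.33, and Psmd3, of the same lid, at -0.37, -1.90 and -0.34, so that HSC array 2 was lowest for both. Psmd9 stood at 0.59, 0.91 and 0.53 there, but its second probe had mixed signs, at 0.87, -2.31 and 1.09. In MPPs Psma2 stood at 0.32, 1.91 and 1.24 and Psma6 at 0.18, 1.42 and 0.84, with MPP array 1 lowest for both of these alpha ring genes. Psma8 stood at -0.11, -3.99 and -1.14 there. The MPP effects were 1.15 (SE 0.46) for Psma2, 0.81 (SE 0.31) for Psma6 and -1.75 (SE 0.77) for Psma8, each with an adjusted p of 0.966 by limma. Without MPP array 2 the effects of Psma6 and Psma8 were 0.51 and -0.63.

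The immunoproteasome genes had no common sign over the single arrays, while the B lineage ratios were high on the MPP arrays. The MPP means were below 0 for Psmb8 (-0.43), Psmb9 (-0.24) and Psmb10 (-0.78), while the second Psmb9 probe gave 0.04. In HSCs 2 of the 3 genes had a mean above 0. Psmb8 stood at -0.29, 1.04 and 0.55 on the HSC arrays and at 0.10, -0.53 and -0.87 on the MPP arrays. Psmb9 stood at -0.17, 1.50 and -0.95 and at -0.22, 0.51 and -1.01. Psmb10 stood between -0.28 and 0.24 on 4 arrays but at -2.81 on HSC array 3 and -2.68 on MPP array 2.

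The cutting subunits of the constitutive core also had no common sign. Psmb5 stood at 0.59, 0.06 and -1.78 on the HSC arrays and at 1.92, 3.14 and -1.18 on the MPP arrays. Psmb6 stood at 0.67, -1.25 and -0.23 and at 0.62, -1.18 and 0.44. Psmb7 stood at 0.44, -0.92 and 0.77 and was above 0 on the MPP arrays, at 0.16, 0.94 and 0.03. For Psmb6 and this probe of Psmb5 alike, 1 array of each population had the opposite sign to the other 2. The second Psmb5 probe stood at 1.34, 0.08 and 0.27 on the HSC arrays and at 1.82, 3.06 and -0.35 on the MPP arrays.

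Replicates of the proteasome genes differed from each other more than those of features in general. The median SD of the log2 level over 3 arrays was 0.74 for the 48 genes against 0.43 for all features in WT HSCs, and 0.54 against 0.38 in WT MPPs. In KO-labelled samples it was 0.65 against 0.48 in HSCs and 0.36 against 0.29 in MPPs. For the log2 ratio it was 0.93 against 0.64 in HSCs and 0.78 against 0.52 in MPPs. The brightest 25% of features had 0.43, 0.41, 0.42 and 0.21 for the levels in the same order, so bright features in general also lay below the proteasome genes. The highest SD in KO-labelled HSCs was 3.23, for Psmg1, which was well above background on 2 of the 3 arrays there. These SDs are a description, and no test was made of them.

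**Figure D5:**
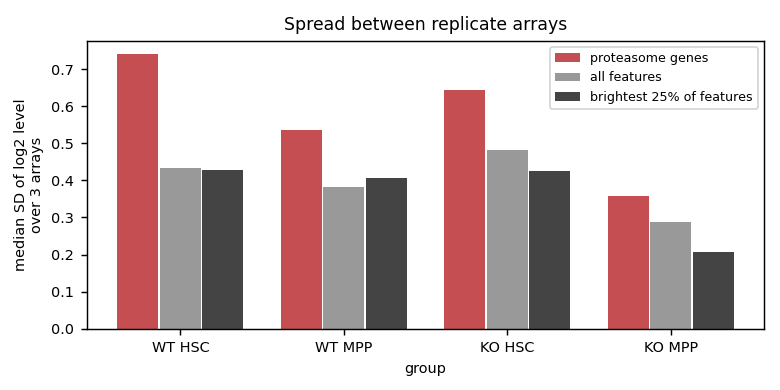
Median SD of the log2 level over the 3 arrays of a group, for the 48 proteasome genes, all features and the brightest 25% of features, in the 4 groups. Bars start at 0; the proteasome bar is the highest in every group, at 0.74, 0.54, 0.65 and 0.36.

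Some genes had several probes, which can be set against each other. Of 11 genes with more than 1 probe that passed, the probes had different signs for 6 genes in the HSC ratio, 3 in the MPP ratio, 2 in MPPs over HSCs among WT samples and 4 among KO-labelled samples. The 2 probes of Psmc2 gave nearly the same WT difference (1.49 and 1.40), and those of Psmd12 did too (0.41 and 0.52). For Psmc1 the second probe gave 1.35 in WT samples and 2.32 in KO-labelled samples, where the first gave 0.19 and 0.68.

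Genes around the proteasome that lie outside the name pattern were taken from a list of 6 groups, of which 36 were tested, while Paaf1 and Ngly1 were not among the features tested. By limma 0 passed in each of the comparisons. In MPPs over HSCs 24 were above 0 among WT samples (44.7% of all features), with a median of 0.32, and 26 among KO-labelled samples (43.8%), with a median of 0.21. An unadjusted p under 0.05 was found for 3 higher (background 7.05%) and 1 lower (7.86%) among WT samples and for 5 higher (6.65%) and 1 lower (5.34%) among KO-labelled samples. The 6 subunits and assembly genes, among them the core chaperone Pomp, were all above 0 in WT MPPs, with a median of 0.71, and 3 of 6 were in KO-labelled MPPs, with a median of 0.11. Of the 8 shuttle genes, which carry ubiquitin-tagged proteins to the cap, 7 were above 0 in each dye.

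The genes of this list described here were among those with the smallest p. Zfand2a, a stress-induced cofactor of the cap, stood 1.41 (SE 0.37) higher in KO-labelled MPPs, with an adjusted p of 0.224 by limma. Ube3c, the ubiquitin ligase at the cap, stood at 7.29, 7.63 and 7.91 in WT HSCs and at 8.49, 8.88 and 9.05 in WT MPPs, a difference of 1.20 (SE 0.28) with an adjusted p of 0.209 by limma. Nfe2l1, which encodes the activator of proteasome genes named above, stood at 11.74, 11.19 and 10.38 in WT HSCs and at 12.17, 12.30 and 12.24 in WT MPPs. The WT groups of Nfe2l1 did not overlap (1.13, SE 0.38, adjusted p 0.291 by limma), while in KO-labelled samples it stood at 12.81, 14.55 and 14.58 in HSCs and at 13.69, 14.22 and 14.28 in MPPs and overlapped.

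Between KO-labelled and WT samples, 25 of the 36 were above 0 in HSCs (50.2% of all features) and 25 in MPPs (50.7%), with medians of 0.21 and 0.08. An unadjusted p under 0.05 was found for 2 of them higher in HSCs (background 3.95%), for 0 in MPPs (2.49% higher and 2.61% lower), for 1 lower in the difference of effects (2.35%) and for 1 higher in the mean effect (4.49%). These counts are close to their backgrounds. In HSCs the smallest p belonged to Ube3c, at 0.24, 2.69 and 1.55, and to Nfe2l1, at -0.31, 1.78 and 2.75, both with an adjusted p of 0.664 by limma. In MPPs it belonged to Ubqln1, a shuttle factor (-0.66, SE 0.33), and to Rps27a, which encodes ubiquitin fused to a ribosomal protein (0.75, SE 0.39), both with an adjusted p of 0.966 by limma. For the mean effect Rps27a (0.76, SE 0.28) and Uchl5 (1.23, SE 0.52), a deubiquitinase of the cap, had the smallest p, with adjusted p-values of 0.585 and 0.598 by limma. For the MPP effect minus the HSC effect it was Ube3c (-1.84, SE 0.71) and Uba1 (1.77, SE 0.93), the ubiquitin-activating enzyme, both with an adjusted p of 0.964 by limma.

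Psmc3ip, the recombination factor that the name pattern also takes, is described apart. It stood at 10.28, 9.75 and 11.23 in KO-labelled HSCs and at 13.61, 13.05 and 13.39 in KO-labelled MPPs. These groups stood well apart, and the difference was 2.93 (SE 0.42), 7.63-fold, with an adjusted p of 0.0509 by limma that ranged from 0.0294 to 0.457 over the alternatives and was under the threshold in 5 of them. In WT samples it stood at 9.62, 7.28 and 12.33 in HSCs and at 12.55, 10.38 and 12.63 in MPPs and overlapped.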

How the data were processed

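Per the file headers, the files the authors deposited give each spot's mean intensity and local background intensity in red and green, read by version 10.7.3.1 of Agilent's Feature Extraction software (8.5.1.1 in the submitters' processing notes), with probe positions on mm9. The same software made the deposited log10 ratio of red over green, which the series table repeats for all 62976 spots, and a processed intensity. Both served as alternatives.

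Mean intensities were background-corrected (normexp, offset 50, limma 3.58.1, R 4.3.3). Ratios were loess-normalized within arrays. Levels were log2 signals quantile-normalized within each dye and were not compared between dyes. Outlier spots were dropped and spots of a probe averaged. A probe stayed if some group had it well above background on every array (44651 of 55681 probes), and the brightest probe stood for a gene. All 29140 features were fitted with lmFit and eBayes on all 6 arrays, with Benjamini-Hochberg adjustment over all features. RefSeq accessions named 48.9% of probes. The scripts were tested on simulated data.

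Members, lists, tests and alternatives were chosen with earlier results of these data known. Named with values were, per comparison, up to 4 genes per direction with the smallest p and the same sign on every array, or with groups that did not overlap, and always Psmg1 to Psmg4, Psmb5 to Psmb10 and Psme1 to Psme4. Of the other pathway genes, those passing or else the 2 with the smallest p were named. Other members (Psmc5, Psmc4, Psmd5, Psmd10, Psmb11 and Psmf1 in MPPs over HSCs, and Psmc3ip) were given levels after their values were seen. The number of arrays limits the precision. A gene of the pathway list that the naming rule selected is not reported here.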

Additional observations from a re-analysis of the deposited data

Results flagged for a closer look

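In 4 proteasome genes every HSC array lay on one side of 0 and every MPP array on the other in the log2 ratio of KO-labelled over WT samples. The MPP effect minus the HSC effect was 2.23 for Psmg3 and 1.04 for Psma3, which were below 0 in HSCs and above 0 in MPPs. It was -0.96 for Psma1 and -1.65 for Psmd5, which were above 0 in HSCs and below 0 in MPPs. The test of the difference itself gave adjusted p-values of 0.964 by limma for all 4, so none passed. Of all features 1.88% showed such a split, and in Psma1 the MPP values lay near 0. The MPP arrays differed from the HSC arrays in their B lineage ratios, whose part in this was not tested.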

How the results depend on the processing

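No proteasome gene passed the test in any comparison under any alternative run, except Psme3 in the mean effect with median centring of the ratios (1 gene, where 299 of all features passed). Under that centring the median log2 ratio was 0.75 in HSCs, 0.54 in MPPs and 0.63 for the mean. In MPPs over HSCs among WT samples, median centring of the levels gave a median of 0.84 and 10 genes higher on every MPP array. Leaving out 1 array in turn gave 7 to 12 such genes, where fewer arrays make separation easier, and gave MPP median ratios of -0.025 to 0.16. Over all alternatives 30 to 41 genes were above 0 in WT MPPs over HSCs and 33 to 41 in KO-labelled ones. A stricter filter left 42 of the 48 genes. Apart from the shares under the stricter filter, the matching values of all features in MPPs over HSCs are not given here. These medians and counts therefore describe the 48 genes alone. Of single genes, the direction turned for Psma1 in the MPP ratio (0.25 with median centring), Psmb10 among WT samples (-0.18 with slide row, and -0.136 to 1.30 leaving out 1 array in turn), Psmb9 among KO-labelled samples (-0.33 as the mean of its probes) and Psmg3 among WT samples (-0.84 to 0.0058 leaving out 1 array in turn). Causes were not tested. With the replicate block the medians were 0.42 among WT and 0.57 among KO-labelled samples, -0.05 for the difference of effects and 0.15 for the mean, and no call among the 48 genes changed, while of all features 0 passed among WT and 37 among KO-labelled samples in place of 122 and 150. Same-numbered HSC and MPP arrays correlated in their deviations between -0.0662 and 0.155 (Pearson's r over features). For numbers 1, 2 and 3, r was 0.155, 0.0374 and 0.128 among WT levels and 0.0369, 0.0945 and 0.00258 among KO-labelled levels. For the ratios it was -0.0662, 0.00886 and 0.0151. Not every array correlated best with its own number, and such weak correlations cannot settle whether same-numbered arrays were paired. Slide row could be fitted with 1 MPP array in row 1. Low signal limits Psma5, Psmc5 and Psmd1 in WT HSCs and Psmb11 and Psmg4 in WT MPPs, with 2 of 3 arrays well above background. The same holds for Psma5, Psmd1, Psmg1 and Psmg4 in KO-labelled HSCs and for Psma8 in KO-labelled MPPs.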
